A study of Mus musculus with 4 samples.

Results

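Fibroblast growth factor (FGF) signalling was followed through 10 genes: the ligands Fgf1 and Fgf2, the receptors Fgfr1, Fgfr2 and Fgfr3, and the feedback genes Spry1, Spry2, Spry4, Spred1 and Dusp6. They were taken by name from 53379 genes in a table of raw RNA sequencing counts, and all 10 were found and passed the filter on low counts. The cells were astrocytes grown from newborn (P0) C57BL/6 mouse cortex, freed of loosely attached cells by shaking, replated and collected at day 14 in vitro (DIV 14). Npas3-/- astrocytes (2 samples) lack the neuronal PAS domain transcription factor NPAS3 according to their genotype label. They were set against wild type astrocytes (2 samples) of the same strain, age and culture method. The labels name neither the kind of deletion nor the animals or cultures behind the samples, and the p-values reflect only how much these samples vary, a variation that can be technical.

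FGFs bind receptor tyrosine kinases at the cell surface with heparan sulphate as a cofactor, and the activated receptor signals through the adaptor FRS2 to RAS, RAF, MEK and ERK. ERK signalling switches on its own brakes: Sprouty and SPRED proteins restrain the RAS-RAF step, and the phosphatase DUSP6 removes the activating phosphates from ERK in the cytoplasm. In the brain FGFs are known for keeping neural progenitors dividing and for guiding astrocyte maturation, and FGFR3 marks cells of the astrocyte lineage.

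Fgfr2 was lower in Npas3-/- astrocytes, at 57.5 ± 5.91 CPM (read counts scaled to the size of the library), against 147 ± 3.71 CPM in wild type (SD, n = 2 each), and this was the only member that also passed the test after correction for transcript GC content and length. On the deposited counts Fgfr1 rose, and Fgf1 and Spred1 fell, but none of these 3 passed after the correction, and the difference of Spred1 changed sign. Dusp6 and Spry2, which are ERK feedback genes, differed by less than their spread between replicates on the deposited counts. Among the 10 genes 1 was called higher and 3 lower, where the same test called 33.1% of all 18838 tested genes, 11.6% higher and 21.5% lower. With the correction edgeR called 0 members higher and 1 lower (2 higher and 2 lower at an unadjusted p below 0.05), against 9.09% of all tested genes, 4.36% higher and 4.73% lower. In 3 members both Npas3-/- libraries lay above both wild type libraries, in 4 below, and in 3 the genotypes overlapped. Of all tested genes 75.8% did not overlap, 35.7% above and 40.1% below. After the correction 6 members lay above and 3 below, beside 61.5% of all tested genes without overlap, 27.2% above and 34.3% below. The median log2 fold change of the 10 members, Npas3-/- over wild type throughout, was -0.04, beside -0.07 over all tested genes. The corrected medians were 0.16 for the members and -0.09 for all tested genes. The gene lists and marker lists below are read beside the same shares and medians of all tested genes.

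Each library held between 82965565 and 86932708 counts, so depth differed little. Npas3 itself had 24.8 and 18 CPM in the libraries labelled Npas3-/-, against 57.8 and 93.4 CPM in wild type, a log2 fold change of -1.82 (SE 0.33, edgeR adjusted p = 0.0181). Its transcript was thus lower but present in both Npas3-/- libraries, and the counts per gene do not tell whether the deleted part is among the reads. The corrected difference of Npas3 was -0.69 (edgeR adjusted p = 0.097). Over 14356 genes at 1 CPM or more the log2 fold change followed the GC content of the transcript, with a Spearman rho of 0.73, and its length, with a rho of -0.48. These are descriptions across genes of the same libraries, and the part of GC and length in each result below was measured only by the corrected values. Leaving out Npas3-/- replicate 2 ended every call of edgeR's test across all genes, while 5728 genes there had an unadjusted p below 0.05; with the correction, leaving out Npas3-/- replicate 1 or 2 did the same, with 4539 and 3636 genes at an unadjusted p below 0.05.

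The cultures carried astrocyte transcripts: the 10 astrocyte markers summed to 6922 and 7126 CPM in Npas3-/- and 3899 and 4944 CPM in wild type. Of these markers 3 rose and 3 fell (3 and 2 with the correction), and none was at 0. Glul, the glutamine synthetase gene and the most abundant of them, had 2046 and 2248 CPM in Npas3-/- libraries and 819.9 and 1043 CPM in wild type libraries, whereas S100b stayed below 1 CPM in every library. Markers of the oligodendrocyte lineage summed to 1414 and 1731 CPM in Npas3-/- and 1376 and 1261 CPM in wild type, most of it Olig1, with Mog at 0 in all 4 libraries. Neuron markers summed to 202 and 201 CPM in Npas3-/- and 308 and 166 CPM in wild type, with Rbfox3 and Snap25 at 0 in both Npas3-/- libraries. Ependymal markers summed to 501 and 635 CPM in Npas3-/- and 362 and 254 CPM in wild type, and fibroblast markers to 279.7 and 348 CPM in Npas3-/- and 390.3 and 326 CPM in wild type. Of 6 tested fibroblast markers 2 fell, and 4 lay below wild type in both Npas3-/- libraries, beside 21.5% and 40.1% of all tested genes. The median of the 6 was -1.22 on the log2 scale (corrected -1.24, with 1 called lower). Of 7 tested neuron markers 2 fell, and 1 fell among the tested markers of each of the oligodendrocyte, endothelial and mural lists. With the correction 1 neuron, 2 oligodendrocyte, 0 endothelial and 1 mural marker were called lower. No marker of these lists, or of the microglia and ependymal lists, was called higher by edgeR. Microglia markers summed to 3.63 and 3.49 CPM in Npas3-/- and 2.03 and 1.41 CPM in wild type, and endothelial markers to 10.8 and 7.00 CPM in Npas3-/- and 7.97 and 8.94 CPM in wild type. In these bulk samples fewer cells of a type and less RNA per cell cannot be told apart, and the part of other cells in the results was not tested.

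Gene positions below are those of GENCODE M21 on the mouse build GRCm38 (mm10). The start regions of 2 members are printed here, as the 250 bases before the gene start that RefSeq gives on GRCm38.p6. Fgfr2 is shown because it was the member that passed with and without the correction, and Spred1 because it had the largest fold change on the deposited counts and held the 1 match found; capitals mark the core CACGT.
Fgfr2, chr7:130266809-130267058, minus strand: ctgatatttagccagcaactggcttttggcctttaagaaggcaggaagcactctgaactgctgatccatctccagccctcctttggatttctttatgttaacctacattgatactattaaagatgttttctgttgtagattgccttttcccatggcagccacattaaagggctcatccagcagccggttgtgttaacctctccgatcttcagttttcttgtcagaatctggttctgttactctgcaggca
Spred1, chr2:117120821-117121070, plus strand: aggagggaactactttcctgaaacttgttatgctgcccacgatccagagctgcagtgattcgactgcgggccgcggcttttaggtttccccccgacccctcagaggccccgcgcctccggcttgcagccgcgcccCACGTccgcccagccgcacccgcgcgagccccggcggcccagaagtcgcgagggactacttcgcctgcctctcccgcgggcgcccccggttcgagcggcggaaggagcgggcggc
The Fgfr2 window was 44% GC and the Spred1 window 70.8% GC. Both strands of 8 windows, belonging to 7 of the 10 members, were searched for the core ACGTG. Fgfr1, Fgf1 and Spry4 had no window and were not searched. The core reads CACGT on the other strand and is bound by bHLH-PAS transcription factor dimers, the family of NPAS3. Spred1 was the 1 member with a match, beside 16.6% of 32851 RefSeq windows of the same length. The ETS core CCGGAA, which reads TTCCGG on the other strand and is bound by the transcription factors through which ERK acts on its targets, was in 0 of the members' windows and in 12.03% of all windows. Such a match is a description of letters in a window and not of a bound site, and absence of these letters says nothing about the factor.

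The ligand gene Fgf1 fell. It encodes a growth factor without a classical secretion signal that binds every FGF receptor. Fgf1 (ENSMUSG00000036585.15, chromosome 18, 38838673 to 38929472, minus strand) had 99.5 and 82.7 CPM in the Npas3-/- libraries, against 152 and 199 CPM in the wild type libraries. Both Npas3-/- values lay below both wild type values. The log2 fold change was -0.95 (SE 0.23, 95% interval -1.52 to -0.37, edgeR adjusted p = 0.033), or 0.519-fold. With the correction it was -0.30 (SE 0.18, edgeR adjusted p = 0.328), and the call was lost. It was lost too without Npas3-/- replicate 1 (-1.09, edgeR adjusted p = 0.0903), Npas3-/- replicate 2 (-0.81, edgeR adjusted p = 0.194) or wild type replicate 2 (-0.75, edgeR adjusted p = 0.108).

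Fgf2, the basic FGF used to expand neural progenitors and astrocytes in culture, was split within the wild type group. Fgf2 (ENSMUSG00000037225.13, chromosome 3, 37348346 to 37410108, plus strand) had 10.4 and 8.0 CPM in Npas3-/-, against 12.5 and 1.69 CPM in wild type. Wild type replicate 1 thus stood above both Npas3-/- libraries and wild type replicate 2 below them. In counts these were 859 and 616 reads in Npas3-/-, against 1111 and 158 reads in wild type. The wild type replicates of Fgf2 differed 7.41-fold, whereas the median fold between replicates was 1.20 in Npas3-/- and 1.24 in wild type over 11617 genes at 5 CPM or more. A fold of 7 or more between replicates occurred in 0.198% of those genes in Npas3-/- and in 0.525% in wild type. The log2 fold change of Fgf2 was 0.37 (SE 0.86, 95% interval -1.79 to 2.53, edgeR adjusted p = 0.764), and 2.24 with the correction (SE 1.04, edgeR adjusted p = 0.22). On the deposited counts its sign depended on 1 library: without wild type replicate 1 the difference was 2.42 (edgeR adjusted p = 0.0135), and without wild type replicate 2 it was -0.46 (edgeR adjusted p = 0.415). Corrected levels were 19.4 and 19.7 CPM in Npas3-/- and 7.68 and 0.598 CPM in wild type, and did not overlap. The corrected difference was positive whichever library was left out, from 1.34 without wild type replicate 2 (edgeR adjusted p = 0.0619) to 5.03 without wild type replicate 1 (edgeR adjusted p = 0.0137).

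The summed level of mural cell markers was low in the same library as Fgf2. It was 1574 and 1651 CPM in Npas3-/- and 1389 and 309 CPM in wild type. Of 3 tested mural markers 2 lay above wild type in both Npas3-/- libraries. The other lay below wild type in both and was called lower in both fits. Acta2, the smooth muscle actin gene, made up most of the sum, with 1334 and 1359 CPM in Npas3-/- and 1243 and 270.2 CPM in wild type. The part of mural markers in the Fgf2 values was not tested. The exons of Fgf2 overlap those of Nudt6 on the opposite strand, which had 3.68 and 5.99 CPM in Npas3-/- and 2.14 and 2.20 CPM in wild type. Whether the counting used strand is not given in the sources used here, so reads of Fgf2 and Nudt6 may not be told apart. 

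Other secreted FGFs were barely present. Of 16 further ligand genes 6 had 0 counts in all 4 libraries and 5 passed the filter, and 0 of the 5 were called in either direction by edgeR, DESeq2 or limma-voom. At an unadjusted p below 0.05 there were 0 on the deposited counts and 1 with the correction, where edgeR also called 0. The most abundant, Fgf18, had 0.821 and 2.29 CPM in Npas3-/-, against 2.73 and 2.67 CPM in wild type (log2 fold change -0.80, SE 0.59, edgeR adjusted p = 0.331). It was the 1 gene below that unadjusted level with the correction, at -1.97 (SE 0.52, edgeR adjusted p = 0.0682). Fgf7, Fgf9 and Fgf17 stayed below 1 CPM in every library. Among the 4 intracellular FGF homologous factors, which bind sodium channels and do not signal through FGF receptors, 1 fell: Fgf14 had 0.241 and 0.260 CPM in Npas3-/- and 1.93 and 2.08 CPM in wild type (log2 fold change -2.99, SE 0.52, edgeR adjusted p = 0.0177). Its corrected difference was -1.03 (edgeR adjusted p = 0.297). Fgf13, the most abundant of the 4, had 17.5 and 16.5 CPM in Npas3-/- and 19.97 and 12.8 CPM in wild type, where the libraries of the genotypes overlapped. With the correction the Npas3-/- libraries lay above wild type, and the difference of Fgf13 was 0.75 (SE 0.29, edgeR adjusted p = 0.149).

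**Figure D1:**
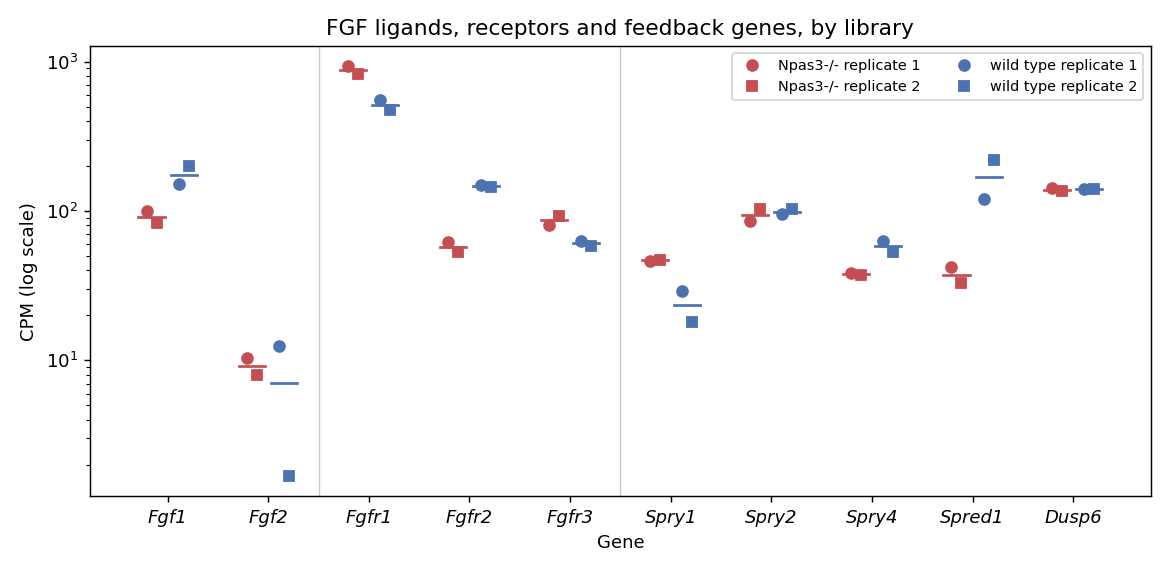
CPM of the 10 genes in each library on a log axis, with Npas3-/- points left of wild type points for each gene. Fgfr2 lay at 61.7 and 53.3 CPM in Npas3-/- and at 149.6 and 144 CPM in wild type, the Dusp6 points of both genotypes lay together, and the wild type points of Fgf2 were far apart.

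Fgfr1 was the most abundant of the receptors and rose on the deposited counts. Fgfr1 (ENSMUSG00000031565.18, chromosome 8, 25513654 to 25575718, plus strand) is the receptor that binds FGF1 and FGF2 widely across tissues. It had 929 and 824 CPM in Npas3-/-, against 553 and 471 CPM in wild type, so that the groups did not overlap. The log2 fold change was 0.78 (SE 0.22, 95% interval 0.24 to 1.31, edgeR adjusted p = 0.0441), or 1.71-fold. With the correction it was 0.60 (SE 0.14, 95% interval 0.25 to 0.94, edgeR adjusted p = 0.0556), just beyond the threshold. The call was lost without Npas3-/- replicate 1 (0.68, edgeR adjusted p = 0.208), Npas3-/- replicate 2 (0.86, edgeR adjusted p = 0.167) or wild type replicate 2 (0.65, edgeR adjusted p = 0.124). The transcript is 55.4% GC, and the median difference of genes in the bin around 55.03% GC was 0.65 on the log2 scale. The antisense gene Gm16159, whose exons overlap those of Fgfr1, had 6 reads in wild type replicate 2 and none in the other libraries.

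Fgfr2 fell. Fgfr2 (ENSMUSG00000030849.18, chromosome 7, 130162451 to 133123350, minus strand) is the receptor whose splice forms divide FGF binding between epithelia and mesenchyme, and whose start region is printed above. It had 61.7 and 53.3 CPM in Npas3-/-, against 149.6 and 144 CPM in wild type, from 5109 and 4105 reads in Npas3-/- and 13286 and 13515 reads in wild type. The replicates lay close together and the groups did not overlap. The log2 fold change was -1.35 (SE 0.19, 95% interval -1.84 to -0.87, edgeR adjusted p = 0.0135), or 0.391-fold. With the correction it was -1.09 (SE 0.14, 95% interval -1.43 to -0.75, edgeR adjusted p = 0.0221), and the corrected levels were 63.9 and 62.1 CPM in Npas3-/- and 135 and 132 CPM in wild type. The transcript is 49.9% GC. In the bins around 49.0% and 51.0% GC the median differences were -0.18 and 0.21 on the log2 scale, with lower quartiles of -0.86 and -0.43, and Fgfr2 lay below both lower quartiles. Without Npas3-/- replicate 2 the difference was -1.25 (edgeR adjusted p = 0.0938), and in that fit 0 genes were called. With the correction it was -1.10 without Npas3-/- replicate 1 (edgeR adjusted p = 0.0935) and -1.05 without Npas3-/- replicate 2 (edgeR adjusted p = 0.156).

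The annotated span of Fgfr2 includes a read-through transcript that shares exons with Ctbp2, a transcriptional corepressor gene on the same strand. Ctbp2 had 61.3 and 62.2 CPM in Npas3-/- and 106 and 104 CPM in wild type (log2 fold change -0.77, SE 0.18, edgeR adjusted p = 0.0309), and its corrected difference was -1.22 (SE 0.15, edgeR adjusted p = 0.0221). Ctbp2 therefore fell in both fits, as Fgfr2 did. How reads shared by the 2 genes were counted is not given in the sources used here, so the Fgfr2 and Ctbp2 counts are uncertain to that extent.

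Fgfr3, the receptor that marks the astrocyte lineage, was not called. Fgfr3 (ENSMUSG00000054252.17, chromosome 5, 33721674 to 33737068, plus strand) had 80.3 and 92.7 CPM in Npas3-/-, against 63.0 and 58.5 CPM in wild type. Both Npas3-/- values lay above both wild type values. The log2 fold change was 0.51 (SE 0.19, 95% interval 0.02 to 1.00, edgeR adjusted p = 0.0937). With the correction the groups overlapped and the difference was 0.13 (SE 0.16, 95% interval -0.26 to 0.51, edgeR adjusted p = 0.642). The Fgfr3 transcript is 56.4% GC, in the range where the median gene was higher in Npas3-/-. Exons of G630022F23Rik overlap it on the opposite strand, with 2.04 to 2.96 CPM over the 4 libraries.

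Set side by side per length, the receptors made a different mix in the genotypes. Levels were divided by the length of the longest protein-coding transcript, and they are a description with no test of their own. Fgfr1 had 184 and 164 CPM per kb in Npas3-/- and 109.7 and 93.5 CPM per kb in wild type. Fgfr2 had 14.3 and 12.4 CPM per kb in Npas3-/- and 34.7 and 33.5 CPM per kb in wild type. Fgfr3 had 18.9 and 21.8 CPM per kb in Npas3-/- and 14.9 and 13.8 CPM per kb in wild type. The order below Fgfr1 was thus turned round, with Fgfr3 above Fgfr2 in both Npas3-/- libraries and Fgfr2 above Fgfr3 in both wild type libraries.

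As a share of the sum of the receptor levels per kb, Fgfr2 made up 6.41 ± 0.227% in Npas3-/- and 22.8 ± 1.42% in wild type (SD, n = 2 each). Fgfr1 made up 83.7 ± 1.43% in Npas3-/- and 67.7 ± 1.74% in wild type. The Fgfr3 share was 9.87 ± 1.66% in Npas3-/- and 9.55 ± 0.324% in wild type, a difference smaller than the spread between replicates. The summed level itself was 208 ± 14.0 CPM per kb in Npas3-/- and 150.04 ± 13.1 CPM per kb in wild type. With the length of all exons in place of the longest transcript the Fgfr2 share was 5.22% in Npas3-/- and 19.1% in wild type. From corrected CPM it was 7.47% in Npas3-/- and 19.995% in wild type.

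**Figure D2:**
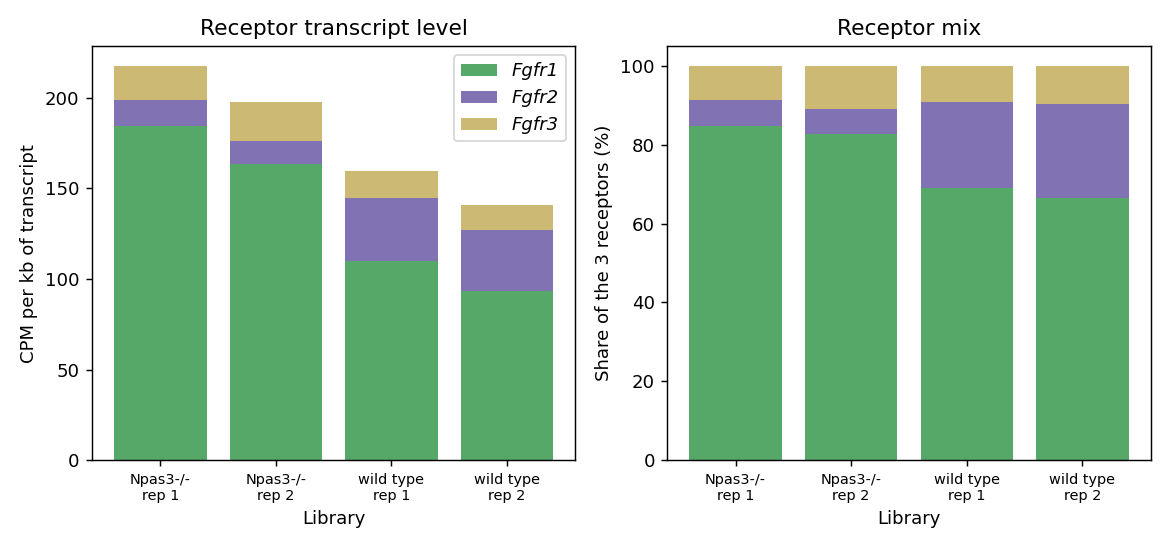
Left, CPM per kb of Fgfr1, Fgfr2 and Fgfr3 in each library, and right, each receptor's percent of their sum per library, Npas3-/- left of wild type. The Fgfr2 share was 6.58% and 6.25% in the Npas3-/- libraries and 21.8% and 23.8% in the wild type libraries.

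The fourth signalling receptor, Fgfr4, was scarce, with 2.35 and 2.16 CPM in Npas3-/- and 1.23 and 0.556 CPM in wild type (log2 fold change 1.34, SE 0.56, edgeR adjusted p = 0.114). Among 9 other receptors and coreceptors 1 rose and 3 fell, the median difference was -0.10 on the log2 scale, and with the correction edgeR called 0 in either direction (3 at an unadjusted p below 0.05), around a median of 0.08. Fgfrl1, a receptor without a kinase domain, rose, with 458 and 501 CPM in Npas3-/- and 248 and 220.2 CPM in wild type (log2 fold change 1.03, SE 0.20, edgeR adjusted p = 0.0209). Flrt3, a membrane protein gene whose product binds FGF receptors, fell, with 2.11 and 2.01 CPM in Npas3-/- and 7.5 and 17.6 CPM in wild type (-2.61, SE 0.50, edgeR adjusted p = 0.0206). Its relative Flrt2 fell as well (-2.60, SE 0.75, edgeR adjusted p = 0.048), as did Cdh2, the N-cadherin gene (-0.83, SE 0.23, edgeR adjusted p = 0.0429). Flrt1, of the same family, was higher but not called, with 5.89 and 4.34 CPM in Npas3-/- and 2.18 and 3.16 CPM in wild type. Its log2 fold change was 0.94 (SE 0.40, edgeR adjusted p = 0.12). Corrected differences were 0.18 for Fgfrl1, -0.67 for Flrt3, -0.33 for Flrt2, 0.97 for Flrt1 (edgeR adjusted p = 0.139) and -0.39 for Cdh2. Ncam1, whose product can engage FGF receptors, had 336 and 244 CPM in Npas3-/- and 313 and 311 CPM in wild type, and its groups overlapped. With the correction the Npas3-/- libraries lay above wild type, and the difference was 0.50 (SE 0.15, edgeR adjusted p = 0.0838). The klotho coreceptor genes Kl and Klb were below 1 CPM in all 4 libraries.

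Among 21 heparan sulphate proteoglycans and their modifying enzymes 1 rose and 3 fell, and the list's median stood at 0.16 on the log2 scale, or -0.03 with the correction. Sdc4, a syndecan core protein gene, had 803 and 904 CPM in Npas3-/-, against 485 and 484 CPM in wild type. It rose by a log2 fold change of 0.82 (SE 0.20, edgeR adjusted p = 0.0347), and the corrected value was 0.81 (SE 0.15, edgeR adjusted p = 0.0352), so Sdc4 was called in both fits. Hs6st2, which adds sulphate to heparan sulphate, fell (-2.30, SE 0.34, edgeR adjusted p = 0.0142), as did the syndecan gene Sdc2 (-1.44, SE 0.22, edgeR adjusted p = 0.0142) and the extracellular sulphatase gene Sulf1 (-1.56, SE 0.25, edgeR adjusted p = 0.0157). Their corrected differences were -0.96, 0.39 and -0.39, and none of these 3 passed. With the correction 3 of the 21 genes were called higher and 0 lower, namely Sdc4 and, named after their values were seen, Hs2st1 and Ext1. Hs2st1 stood at -0.50 on the deposited counts (edgeR adjusted p = 0.1) and at 1.07 with the correction (edgeR adjusted p = 0.0276), and Ext1 at -0.03 and 1.98 (edgeR adjusted p = 0.93 and 0.0221).

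Of the feedback genes, Dusp6 differed little between genotypes on the deposited counts. Dusp6 (ENSMUSG00000019960.8, chromosome 10, 99263231 to 99267489, plus strand) had 142 and 136 CPM in Npas3-/-, against 141 and 139 CPM in wild type. The wild type values lay between the Npas3-/- values. The log2 fold change was -0.01 (SE 0.18, edgeR adjusted p = 0.966), with a 95% interval from -0.46 to 0.44. With the correction it was 0.12 (SE 0.14, 95% interval -0.21 to 0.46, edgeR adjusted p = 0.596). Corrected levels were 146 and 145 CPM in Npas3-/- and 131 and 136 CPM in wild type, and did not overlap. Its transcript is 49.0% GC, where the median gene of the bin stood at -0.18.

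The 3 Sprouty genes, whose products hold back RAS-ERK signalling below receptor tyrosine kinases, differed in the sign of their log2 fold changes, and edgeR called none of them. Spry1 (ENSMUSG00000037211.12, chromosome 3, 37639947 to 37644598, plus strand) had 46.5 and 47.0 CPM in Npas3-/-, against 29.1 and 18.1 CPM in wild type. Its log2 fold change was 0.99 (SE 0.29, 95% interval 0.26 to 1.72, edgeR adjusted p = 0.0507), just beyond the threshold, and 0.32 with the correction (SE 0.20, edgeR adjusted p = 0.359). The groups did not overlap. Leaving out 1 library each gave differences from 0.67, without wild type replicate 2, to 1.35, without wild type replicate 1. limma-voom (adjusted p = 0.042) and DESeq2 (adjusted p = 0.00868) did call Spry1.

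Spry4 (ENSMUSG00000024427.6, chromosome 18, 38586247 to 38601415, minus strand) pointed the other way, with 38.3 and 37.1 CPM in Npas3-/- and 63.2 and 53.0 CPM in wild type. Its log2 fold change was -0.62 (SE 0.21, 95% interval -1.15 to -0.10, edgeR adjusted p = 0.0676). It was -0.47 with the correction (SE 0.17, edgeR adjusted p = 0.133). The Spry4 groups did not overlap in either scale, and DESeq2 called it (adjusted p = 0.0446). Spry2 (ENSMUSG00000022114.5, chromosome 14, 105891947 to 105896819, minus strand) overlapped between genotypes, with 86.1 and 103 CPM in Npas3-/- and 95.2 and 102 CPM in wild type (log2 fold change -0.06, SE 0.20, edgeR adjusted p = 0.833). With the correction its difference was 0.53 (SE 0.16, 95% interval 0.14 to 0.92, edgeR adjusted p = 0.0903). Corrected levels of Spry2 were 106 and 127 CPM in Npas3-/- and 78.2 and 82.8 CPM in wild type, and did not overlap. By position, Spry1 lies 229.8 kb from Fgf2 on chromosome 3, and Spry4 lies 237 kb from Fgf1 on chromosome 18.

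Spred1 had the largest fold change of the 10 members on the deposited counts and lost it with the correction. Spred1 (ENSMUSG00000027351.14, chromosome 2, 117121374 to 117182279, plus strand), whose start region is printed above, encodes the protein that brings neurofibromin to the membrane to switch off RAS. It had 42.1 and 32.8 CPM in Npas3-/-, against 119.7 and 219 CPM in wild type. Spred1 fell by 2.17 on the log2 scale (SE 0.35, 95% interval -3.04 to -1.31, edgeR adjusted p = 0.0156), or to 0.222-fold. Its transcript is 41.2% GC, and the 745 genes of the bin around 41.1% GC were at a median of -2.45 on the log2 scale, with quartiles of -2.94 and -1.65. Spred1 lay between the quartiles of its GC bin. With the correction it had 81.5 and 84.9 CPM in Npas3-/- and 74.1 and 70.6 CPM in wild type, a log2 fold change of 0.20 (SE 0.14, edgeR adjusted p = 0.389), and with a spline pseudocount of 2 the corrected value was -0.12 (edgeR adjusted p = 0.6). Without Npas3-/- replicate 2 the uncorrected difference was -2.00 (edgeR adjusted p = 0.0859).

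**Figure D3:**
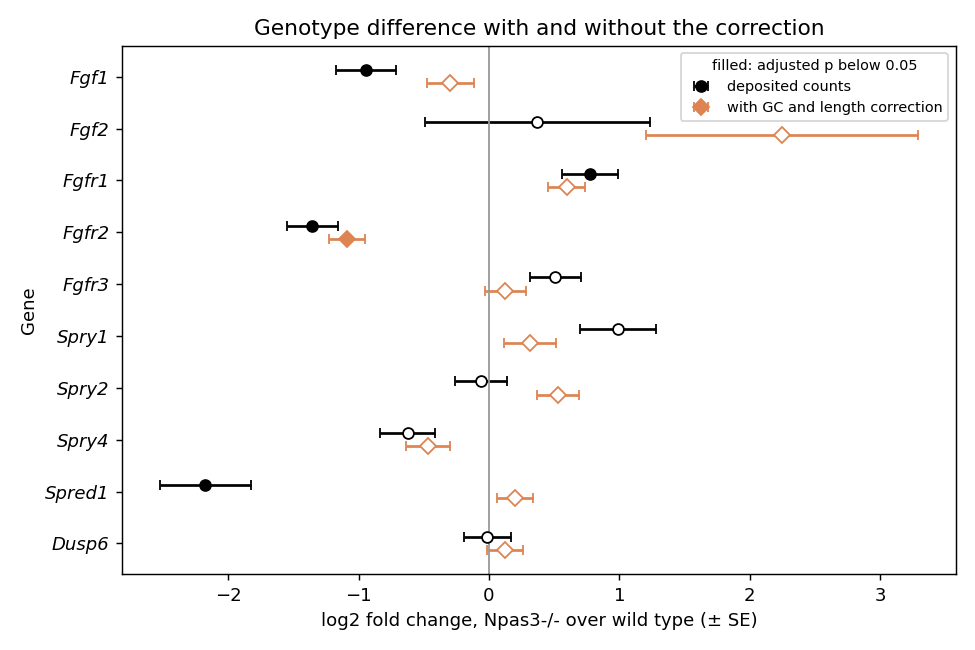
Log2 fold change, Npas3-/- over wild type, of the 10 genes (bars, ± SE), on the deposited counts and with the GC and length correction. Fgfr2 stood at -1.35 and -1.09, filled in both, and Spred1 at -2.17 and 0.20.

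**Figure D4:**
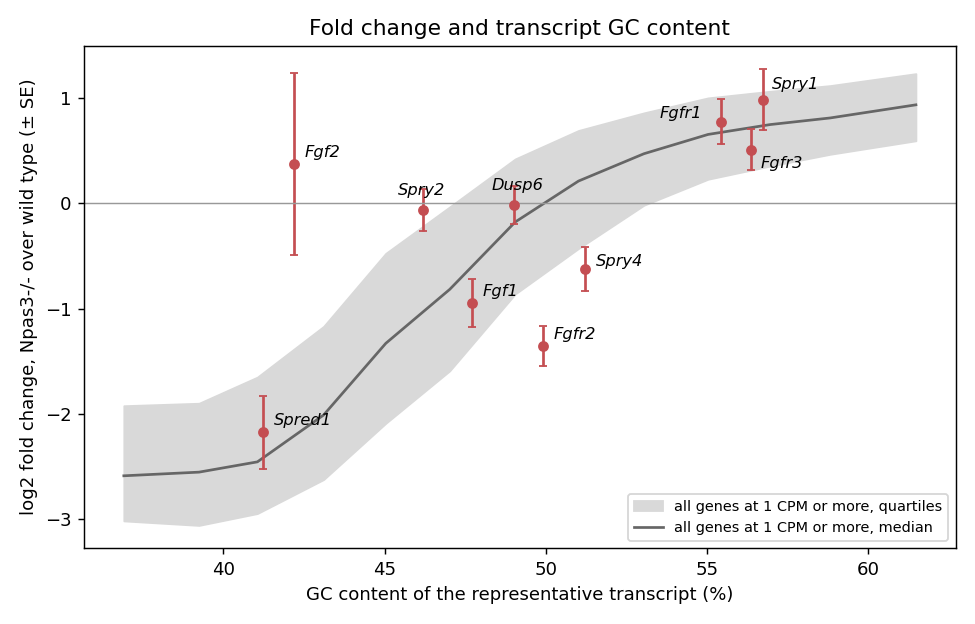
Log2 fold change, Npas3-/- over wild type, against GC content in percent, with the medians and quartiles of all genes in GC bins and the 10 genes marked. Spred1 (41.2% GC) sat on the trend of the bins and Fgfr2 (49.9% GC) below it.

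By level per kb, the 10 genes spanned a wide range. In Npas3-/- Fgfr1 led at 174 CPM per kb, followed by Dusp6 at 49.7 and Spry2 at 45.4, whose libraries overlapped, then by Fgf1 at 22.9 and Fgfr3 at 20.4, whose libraries overlapped too. Below them in Npas3-/- came Spry1 at 16.9, Fgfr2 at 13.3, Spry4 at 7.93, Spred1 at 6.23 and Fgf2 at 1.54 CPM per kb. In wild type the order was Fgfr1 at 102, Dusp6 at 50.1, Spry2 at 47.4 and Fgf1 at 44.1 CPM per kb. There the libraries of Fgf1 overlapped those of both Spry2 and Dusp6. Then came Fgfr2 at 34.1 and Spred1 at 28.1, overlapping each other, Fgfr3 at 14.3, Spry4 at 12.2, Spry1 at 8.51 and Fgf2 at 1.19 CPM per kb. Fgfr1 was the highest and Fgf2 the lowest of the 10 in both genotypes.

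Beyond the members, Spred2 fell in both fits. Spred2, the close relative of Spred1, had 69.3 and 45.9 CPM in Npas3-/-, against 149 and 169 CPM in wild type. Its log2 fold change was -1.46 (SE 0.26, edgeR adjusted p = 0.0184), and -1.39 with the correction (SE 0.20, edgeR adjusted p = 0.0247). Of 12 further feedback regulators tested, 0 rose and 3 fell in edgeR, DESeq2 and limma-voom alike (0 and 4 at an unadjusted p below 0.05 in edgeR), the list's median was -0.19 on the log2 scale, and with the correction Spred2 alone was called. The corrected median was -0.50, and 1 gene was higher and 5 lower at an unadjusted p below 0.05. Cbl, a ubiquitin ligase gene whose product marks receptor tyrosine kinases for breakdown, had 61.7 and 31.0 CPM in Npas3-/- and 181 and 184 CPM in wild type (log2 fold change -1.98, SE 0.36, edgeR adjusted p = 0.0186). Its relative Cblb fell too (-1.63, SE 0.38, edgeR adjusted p = 0.03). The corrected values were -0.51 for Cbl and -0.37 for Cblb. The ERK phosphatase genes Dusp4, Dusp5 and Dusp7 and the immediate early phosphatase gene Dusp1 had log2 fold changes between -0.08 and 0.26 on the deposited counts. With the correction they lay between -0.72 and -0.44, and edgeR called none of these genes in either fit. Dusp9, of the same list, stayed below 1 CPM, with 0 and 4 reads in Npas3-/- and 44 and 33 reads in wild type. Its log2 fold change was -3.98 (SE 1.46, edgeR adjusted p = 0.0857), and -4.76 with the correction (SE 1.46, edgeR adjusted p = 0.0946). Il17rd, a membrane inhibitor of FGF signalling, had 6.22 and 4.78 CPM in Npas3-/- and 6.32 and 13.9 CPM in wild type (log2 fold change -0.88, SE 0.46, edgeR adjusted p = 0.188).

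The cascade between receptor and ERK split in direction on the deposited counts. Of 22 genes 4 rose and 8 fell, and the median was -0.01 on the log2 scale. With the correction 4 were called higher and 0 lower (8 and 1 at an unadjusted p below 0.05), with a median of 0.07. Over all tested genes 11.6% were called higher and 21.5% lower, and 4.36% and 4.73% with the correction. Mapk3, the ERK1 gene, rose, with 409.9 and 428 CPM in Npas3-/- and 162 and 133 CPM in wild type (1.51, SE 0.21, edgeR adjusted p = 0.0134). Frs2, the adaptor that docks on FGF receptors, fell (-2.03, SE 0.29, edgeR adjusted p = 0.0135), as did Nf1, the neurofibromin gene (-2.24, SE 0.37, edgeR adjusted p = 0.0161). With the correction the differences were 0.51 for Mapk3, -0.31 for Frs2 and -0.21 for Nf1, and none of these 3 passed. The 4 genes called higher with the correction were the adaptor gene Shc1, the scaffold gene Ksr1, Nras and Araf, named after their values were seen. Shc1 (corrected 0.77, edgeR adjusted p = 0.0358) and Ksr1 (corrected 0.74, edgeR adjusted p = 0.0399) also rose on the deposited counts. Nras was called lower there, at -1.04 (edgeR adjusted p = 0.0494), and higher with the correction, at 0.89 (edgeR adjusted p = 0.0289).

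Genes that respond to ERK gave other calls with the correction than without it. Of 16 such genes 4 rose and 0 fell (7 higher and 2 lower at an unadjusted p below 0.05, and 6 and 2 called by DESeq2); the list's median difference was 0.59 on the log2 scale and its median transcript was 55.8% GC. Ier3, an immediate early gene, had 149 and 178 CPM in Npas3-/- and 56.7 and 65.3 CPM in wild type (1.42, SE 0.21, edgeR adjusted p = 0.0137). The AP-1 gene Junb (1.07, SE 0.23, edgeR adjusted p = 0.026), Ier2 (1.10, SE 0.28, edgeR adjusted p = 0.0373) and Phlda1 (0.98, SE 0.28, edgeR adjusted p = 0.0454) rose as well. Corrected differences of these 4 genes lay between -0.10 and 0.42, and none passed. With the correction the median of the 16 was -0.07, with 1 called higher and 2 lower. These 3 were Etv1 (1.54, edgeR adjusted p = 0.0358), Egr1 (-1.23, edgeR adjusted p = 0.0495) and Fos (-1.14, edgeR adjusted p = 0.0486), named after their values were seen. Etv1 had been lower without the correction, at -1.01 (edgeR adjusted p = 0.0713).

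Other receptor tyrosine kinases, which share the RAS-ERK cascade with FGF receptors, gave 2 higher and 5 lower calls among 16, around a median of -0.12 on the log2 scale. The collagen receptor gene Ddr2 (-2.06, SE 0.28, edgeR adjusted p = 0.013), the hepatocyte growth factor receptor gene Met (-2.18, SE 0.30, edgeR adjusted p = 0.0131) and the insulin receptor gene Insr (-1.25, SE 0.20, edgeR adjusted p = 0.0157) fell. Tyro3 rose (1.17, SE 0.28, edgeR adjusted p = 0.0326). With the correction Tyro3 stood at 0.90 (SE 0.23, edgeR adjusted p = 0.0646), Ddr2 at -0.23, Met at -0.59 and Insr at 0.25, and none of these 4 passed. The corrected median of the list was 0.41, with 6 genes higher and 1 lower at an unadjusted p below 0.05. There Egfr alone was called, and higher, at 1.01 (edgeR adjusted p = 0.0238), although it was called lower on the deposited counts, at -1.11 (edgeR adjusted p = 0.0396); it was named after its values were seen.

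**Figure D5:**
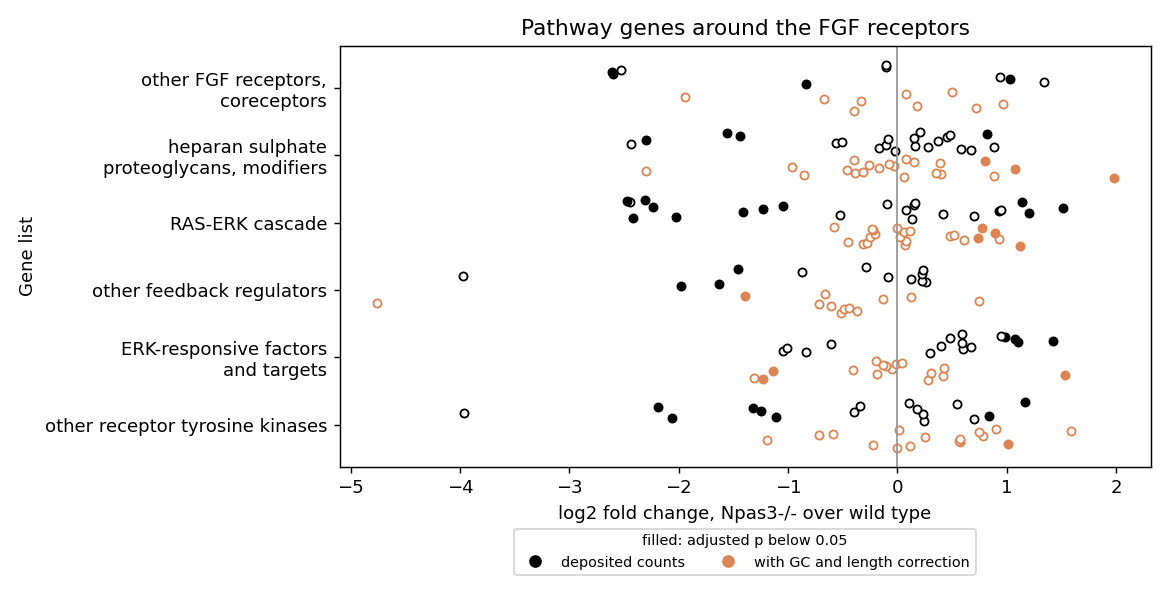
Log2 fold change, Npas3-/- over wild type, of the tested genes of 6 pathway lists, on the deposited counts (black) and with the GC and length correction (orange), with filled points past the threshold. Of the RAS-ERK cascade 4 black points are filled right of 0 and 8 left of it, and 4 orange points are filled right of 0 and 0 left of it.

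Among 10854 protein-coding genes at 5 CPM or more on average, those whose pattern over the 4 libraries was nearest to a receptor were found by Euclidean distance of centred log2(CPM + 2). For Fgfr1 they were Wwp2, at a distance of 0.0132, and Snrnp70, at 0.0304. For Fgfr2 they were Ccn4, at 0.0312, and Cpsf2, at 0.0400, and for Fgfr3 Hsd17b4, at 0.0237, and Esd, at 0.0392. Ccn4 had only 3.08 and 2.52 CPM in Npas3-/- and 10.3 and 10.0 CPM in wild type. At that level the added 2 shrinks differences, and its log2 fold change was -1.86, beside -1.35 for Fgfr2. Corrected differences were 0.49 for Wwp2 and -0.23 for Snrnp70, beside 0.60 for Fgfr1. They were -0.62 for Ccn4 and 0.43 for Cpsf2, beside -1.09 for Fgfr2, and 0.60 for Hsd17b4 and 1.40 for Esd, beside 0.13 for Fgfr3.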

How the data were processed

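RNA sequencing counts of 4 samples, 2 Npas3-/- and 2 wild type, were analysed. The authors deposited raw counts per gene in 1 table with Ensembl identifiers. Trimming with Trimmomatic 0.3.8, alignment with HISAT2 2.1.0 to mm10 and counting with featureCounts are named per the submitters' processing notes. The sources used here give neither annotation release nor strand setting nor handling of shared reads. Columns were matched to samples by name and groups taken from the genotype label. Symbols, GC content and lengths came from GENCODE M21 by identifier without version (53274 of 53379 matched), and sequences from RefSeq.

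Genotypes were compared in edgeR 4.0.16 (R 4.3.3) by its quasi-likelihood test with TMM, filterByExpr at a minimum count of 10, no covariate and 2 residual degrees of freedom. Benjamini-Hochberg adjustment ran over all 18838 tested genes, with a threshold of 0.05. CPM used TMM-scaled library sizes. The SE is the size of the log2 fold change over the square root of F. In the correction, natural splines (6 degrees of freedom each) of GC and log2 length were fitted per library to deviations of log2(CPM + 0.25), on genes at 5 CPM or more, and entered as offsets. The correction also removes true differences that follow GC or length. limma-voom (limma 3.58.1), DESeq2 1.42.0 and the settings in the closing section were alternatives.

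Members and lists were chosen with earlier results of these data known. Named were all members and Npas3, any tested gene of the receptor and feedback lists, the 4 smallest p of each other list, the most abundant tested gene of each marker list and 2 genes nearest each receptor; exceptions are marked, and 1 gene that the rule names is not reported here. Spry3 was not analysed here. The labels do not say that replicate numbers pair samples.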

Additional observations from a re-analysis of the deposited data

How the results depend on the processing

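With 2 samples a group the calls are fragile. On the deposited counts, 4 members and 6232 genes were called, beside 2 and 3997 without a filter on low counts, 2 and 2972 when tested against a fold of 1.5, and 0 and 0 at an adjusted p below 0.01 (9024 genes at an unadjusted p below 0.05). Leaving out 1 library each gave 0 to 6 members and 0 to 5832 genes, with the lone sample of a genotype assumed to vary like the other group. DESeq2 size factors gave 5 members and 6425 genes, limma-voom 5 and 6036, DESeq2 6 and 8372, and a filter of 5 CPM 6 and 5979 of 11652 tested. With the correction 1 member and 1713 genes were called, 0 to 2 members and 0 to 1947 genes when leaving out 1 library each (811 without wild type replicate 2), and 1 and 2001 with a spline pseudocount of 2, chosen after seeing the data. As the labels do not pair the numbers, the replicate block shares only a number: it left 2 members and 2560 genes, and 0 and 0 with the correction and the replicate block together (4359 genes at an unadjusted p below 0.05). Deviations of same-numbered samples correlated at -0.32, and a crossed block added after seeing the data called 6 members and 7670 genes, or 1 and 2156 with the correction. Fgfr2 kept its sign in 21 of 21 alternatives and its call in 16, and Fgfr1 and Fgf1 kept theirs in 6 of 21 each. Signs turned for 4 members. Spred1 stood at 0.20 with the correction, alone or with the replicate or crossed block, and at 0.18 to 0.25 when also leaving out 1 library each (0.19 without Npas3-/- replicate 2), but at -0.12 with a spline pseudocount of 2. Spry2 stood at 0.53 with the correction, 0.52 with either block, 0.46 with a spline pseudocount of 2, 0.42, 0.48, 0.54 and 0.68 with the correction and -0.19 to 0.061 without it when leaving out 1 library each. Dusp6 stood at 0.0027 with DESeq2 and its size factors, at 0.12 with the correction, alone or with either block, at 0.11 with a spline pseudocount of 2, and at 0.080, 0.13, 0.13 and 0.15 with the correction and -0.047 to 0.025 without it when leaving out 1 library each. Fgf2 stood at -0.46 without wild type replicate 2 on the deposited counts, where it lay between -0.46 and 2.42 over the libraries left out; with the correction it lay between 1.34 and 5.03. The cause of these changes was not tested.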
